A study of Mus musculus with 13 samples.

Results

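The mouse mitochondrial genome carries 37 genes in the GRCm38 annotation, of which 13 encode proteins, 2 encode ribosomal RNAs and 22 encode transfer RNAs. The members described here were all the entries of the expression table placed on the mitochondrial chromosome, and there were 13 of 34745. All 13 were the protein-coding genes, and all 13 stood at their annotated GRCm38 positions. The 2 ribosomal RNA genes and the 22 transfer RNA genes were not analysed here.

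The table came from RNA sequencing of kidney tissue from 13 mice, 1 library for each label number, and each number was taken as a separate mouse. Knockout mice lacked DsbA-L, the disulfide-bond A oxidoreductase-like protein encoded by Gstk1, which is found in mitochondria and other organelles. The groups were knockout mice given lipopolysaccharide (LPS, a bacterial endotoxin used to produce acute kidney injury) intraperitoneally at 10 mg/kg (3 libraries: AKI-320, then AKI-156, then AKI-381), wild-type mice given the same LPS (4 libraries: AKI-317, then AKI-319, then AKI-12, then AKI-13), knockout mice given 200 µL saline (3 libraries) and wild-type mice given saline (3 libraries). The labels give the saline as intraperitoneal too, while the titles of the saline libraries read Naive. Values per library follow this order within a group, with saline libraries numbered 1 to 3. Strain, age, the way the knockout was made and the time from injection to sampling are not stated in these labels. The study asked how loss of DsbA-L changes the injury that LPS causes in the kidney.

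Mitochondrial protein genes encode core subunits of the respiratory chain and of ATP synthase, while the other subunits are encoded in the nucleus and imported. Both strands of the circular genome are transcribed as long precursors, and most messengers are released where transfer RNAs are cut out of them. The short tails of these messengers are added by a mitochondrial poly(A) polymerase, and several stop codons are only completed by that tail. Kidney tubules, above all the proximal tubule and the thick ascending limb, depend on oxidative phosphorylation and are rich in mitochondria.

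The members comprised 7 subunits of complex I (NADH dehydrogenase: mt-Nd1, mt-Nd2, mt-Nd3, mt-Nd4, mt-Nd4l, mt-Nd5 and mt-Nd6), 1 of complex III (mt-Cytb), 3 of complex IV (cytochrome c oxidase: mt-Co1, mt-Co2 and mt-Co3) and 2 of complex V (ATP synthase: mt-Atp6 and mt-Atp8). Their plus-strand annotation held for 12 genes, and mt-Nd6 alone lay on the minus strand of the annotation, so it is made from the other precursor. Start codons were atg in 9 genes, gtg in mt-Nd1, ata in mt-Nd2, att in mt-Nd3 and atc in mt-Nd5. The reading frames of mt-Co3, mt-Nd4 and mt-Cytb ended with a single t, 1 base past the last full codon, where the tail completes the stop.

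Neighbouring genes overlapped at 4 places, where reads can be assigned to either gene, and sequences are shown for the 3 overlaps longer than 1 base. mt-Atp8 (MT:7766-7969, plus strand) shared its last 43 bases with the start of mt-Atp6 (MT:7927-8607, plus strand), and mt-Atp6 shared 1 base with mt-Co3 (MT:8607-9390, plus strand). mt-Nd4l (MT:9877-10173, plus strand) shared 7 bases with mt-Nd4 (MT:10167-11544, plus strand). The ends of mt-Nd5 (MT:11742-13565, plus strand) and mt-Nd6 (MT:13552-14070, minus strand) lay opposite each other over 14 bases. Each sequence below is GRCm38, written 5′ to 3′ on the strand of its gene, with the bases shared with the neighbour, or their complement for mt-Nd5 and mt-Nd6, in capitals.
mt-Atp8 (MT:7766-7969): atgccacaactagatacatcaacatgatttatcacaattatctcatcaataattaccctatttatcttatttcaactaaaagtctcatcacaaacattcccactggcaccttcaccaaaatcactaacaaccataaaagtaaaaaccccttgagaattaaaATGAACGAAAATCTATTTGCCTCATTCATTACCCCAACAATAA
mt-Atp6, first 120 bases (MT:7927-8046): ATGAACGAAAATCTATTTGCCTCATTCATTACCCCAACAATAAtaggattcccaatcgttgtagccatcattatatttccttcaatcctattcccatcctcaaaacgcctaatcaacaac
mt-Nd4l to mt-Nd4 (MT:10114-10226): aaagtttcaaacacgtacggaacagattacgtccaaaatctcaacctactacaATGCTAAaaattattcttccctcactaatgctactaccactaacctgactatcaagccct
mt-Nd5, last 60 bases (MT:13506-13565): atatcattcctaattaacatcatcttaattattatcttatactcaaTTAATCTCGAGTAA
mt-Nd6, last 60 bases (MT:13552-13611): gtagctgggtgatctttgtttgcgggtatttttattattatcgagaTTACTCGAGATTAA
mt-Atp8 and mt-Atp6 are known to be carried on a single messenger, as are mt-Nd4l and mt-Nd4, so the levels of each such pair describe parts of a shared RNA. The labels do not state whether the library kit marked strand. For mt-Nd6 and mt-Nd5, reads from one and antisense reads from the other therefore cannot be told apart.

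Counts on the mitochondrial genes ran between 1859464 and 4052254 per library, of totals between 14372212 and 17668334. The lowest count of any member in any library was 746 (mt-Nd6), so all 13 passed the filter on low counts. Gstk1 had 27, 1 and 19 counts in knockout LPS libraries, 351, 445, 570 and 297 in wild-type LPS libraries, 60, 41 and 44 in knockout saline libraries and 830, 660 and 768 in wild-type saline libraries. Xist was at 10 counts or fewer in all 7 LPS libraries and at 11446 or more in all 6 saline libraries, and Ddx3y, a Y-linked gene, was at 951 or more in the LPS libraries and at 0 in the saline libraries. By these genes the LPS mice were male and the saline mice female, so in every comparison of LPS with saline the treatment and the sex cannot be told apart. The 6 listed nuclear RNAs without poly(A) tails summed to at most 0.278 CPM (counts scaled to the library total) in any library.

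mt-Atp6, which encodes the proton channel subunit of ATP synthase, stood apart in 3 libraries of 3 different groups. It had 40548 counts in knockout LPS library AKI-156, 39014 in wild-type LPS library AKI-13 and 54877 in knockout saline library 3, against 155320 to 388291 in the other 10. The ratio of mt-Atp6 to mt-Atp8 counts was 0.384, 0.367 and 0.372 in those 3 libraries and 2.25 to 2.95 in the others. The ratio of mt-Atp6 to mt-Co3 counts was 0.151 to 0.157 in the 3 and 1.01 to 1.26 in the others. The neighbours on both sides were not low there: the ratio of mt-Atp8 to mt-Co3 counts was 0.406, 0.412 and 0.422 in the 3, within the 0.358 to 0.479 of the others. The cause was not tested, and the change of mt-Atp6 in each comparison is given with and without these libraries.

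**Figure D1:**
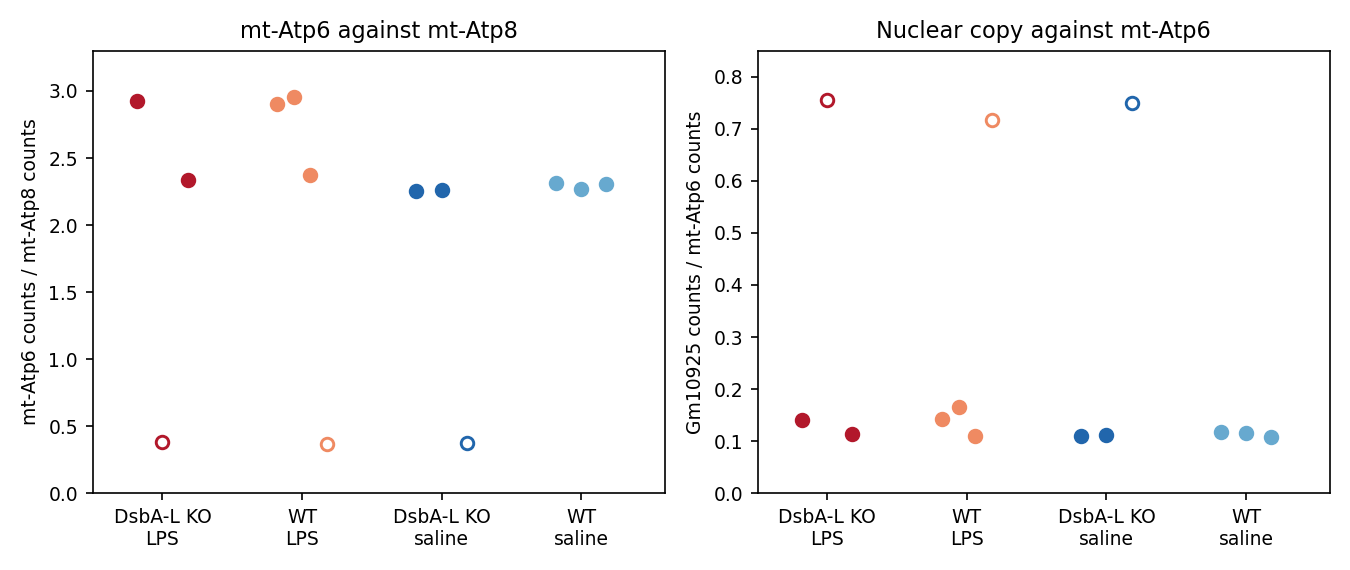
Ratio of mt-Atp6 to mt-Atp8 counts (left) and of Gm10925, a nuclear copy, to mt-Atp6 counts (right), 1 point per library in each group, with open points for the 3 libraries low in mt-Atp6. The open points sit between 0.367 and 0.384 on the left, against 2.25 to 2.95 for the filled ones, and between 0.717 and 0.756 on the right, against 0.107 to 0.165.

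Copies of mitochondrial DNA that lie in the nuclear genome can take reads from the true transcripts, and 9 such entries of the table aligned to members. Of the 6 copies on chromosome 1, Gm10925 was identical to mt-Atp6 over 678 bases, Gm28437 to mt-Co3 over 783, Gm28438 to mt-Nd3 over 342, Gm28439 to mt-Nd4 over 876 and Gm28661 to mt-Co2 over 681. The sixth, Gm29216, matched the 3′ part of mt-Co1 with 6 differences over 492 bases, written T1056A, C1057T, A1059G, A1060G, C1062A and A1066T with positions from 1 at the first base of mt-Co1 and the mt-Co1 base first. The 3 copies on chromosome 2 were more diverged, with 97.61% identity for Gm13340 against mt-Co1, 96.67% for Gm13339 against mt-Nd2 and 97.62% for Gm13341 against mt-Co2. The start of Gm29216 and the stretch of mt-Co1 opposite it are shown because they hold all 6 differences, in capitals; after them no base distinguishes the copy.
mt-Co1 (MT:6381-6440, plus strand): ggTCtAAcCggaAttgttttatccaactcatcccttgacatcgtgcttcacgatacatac
Gm29216 (chr1:24616138-24616197, minus strand): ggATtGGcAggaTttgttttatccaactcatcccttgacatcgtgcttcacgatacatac

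The chromosome 1 copies together held between 3.73% and 6.13% as many counts as the members. The percentages were 5.24, 4.94 and 3.87 in knockout LPS libraries, 5.32, 6.13, 3.91 and 4.25 in wild-type LPS libraries, 3.78, 3.85 and 4.70 in knockout saline libraries, and 4.11, 3.96 and 3.73 in wild-type saline libraries. The highest values were those of libraries AKI-320, AKI-317 and AKI-319, and the groups overlapped. Gm10925 had 71.7% to 75.6% as many counts as mt-Atp6 in the 3 libraries low in mt-Atp6, and 10.7% to 16.5% in the others. Its own counts in the 3 (30654, 27975 and 41094) lay within the 17526 to 48960 of the others. All 8 copies tested had estimates below 0 between knockout and wild-type LPS kidneys, with a median log2 fold change of -0.68. In edgeR 1 was called lower, against 6.29% of all tested genes, and 6 were lower at an unadjusted p under 0.05 and 6 in DESeq2. The called copy was Gm10925 (-0.83 ± 0.26, edgeR adjusted p = 0.0460), in 3 of 13 fits that left out 1 library. The count was 7 without knockout LPS library AKI-156, 5 without wild-type LPS library AKI-13, 3 without wild-type LPS library AKI-317 and 0 without any other library. Over all genes, 988 of 15703 were lower in the main fit and 1638 of 15693 in DESeq2. Without AKI-156, AKI-13 or AKI-317 the number was 2105 of 16021, 1063 of 15643 or 920 of 15616. Gm13339 was higher in wild-type LPS than in wild-type saline kidneys (0.87 ± 0.33, edgeR adjusted p = 0.0367), and in 7 of 13 such fits. Gm28439 was lower in knockout LPS than in knockout saline kidneys (-0.88 ± 0.23, edgeR adjusted p = 0.0120).

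Levels per gene length, in FPKM (fragments scaled to gene length and library total), kept nearly the same order in the 4 groups. mt-Co1, the catalytic core of cytochrome c oxidase, was highest in each, with means of 30480 ± 4801 FPKM in knockout LPS kidneys (SD, n = 3), 38800 ± 5672 in wild-type LPS kidneys (n = 4), 43380 ± 2279 in knockout saline kidneys (n = 3) and 41380 ± 641 in wild-type saline kidneys (n = 3). mt-Atp8, a small ATP synthase subunit, came next in each group, with group means of 26610 to 41690 FPKM, followed by mt-Co2, which takes electrons from cytochrome c, with 20880 to 30170. Under LPS the ranges of mt-Co1 and mt-Atp8 overlapped in both genotypes, as did those of mt-Atp8 and mt-Co2. With saline mt-Co1 and mt-Atp8 overlapped in knockouts (41790 to 45990 and 39430 to 43660 FPKM) but not in wild types. mt-Atp8 lay above mt-Co2 with saline without overlap in both genotypes.

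With saline the remaining plus-strand members fell into tiers. mt-Co3, mt-Atp6 and mt-Cytb, the catalytic subunit of complex III, lay at 19790 FPKM or more in the saline libraries, except mt-Atp6 at 4863 in knockout library 3. mt-Nd1, mt-Nd4l, mt-Nd4 and mt-Nd2, membrane-arm subunits of complex I, lay between 11500 and 18650 FPKM, and mt-Nd3 and mt-Nd5 between 6712 and 8649. Under LPS the means kept these tiers, but the ranges of mt-Cytb and mt-Co3 overlapped that of mt-Nd1 in both genotypes. In knockout LPS kidneys mt-Nd3, at up to 6392 FPKM, also overlapped mt-Nd2 and mt-Nd4, at 6279 and 6357 or more.

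mt-Nd6 was by far the lowest, at 112 ± 26.5 FPKM in knockout LPS kidneys, 157 ± 10.0 in wild-type LPS kidneys, 163 ± 34.6 in knockout saline kidneys and 233 ± 25.96 in wild-type saline kidneys. It held 0.0296% to 0.0605% of all mitochondrial counts, while mt-Co1 held 29.0% to 34.8%. The composition of the mitochondrial pool varied little for most genes. Over the 13 libraries the highest share of a gene was 1.16 to 1.55 times the lowest for 10 of the 13, 1.89 times for mt-Nd4l, 2.04 times for mt-Nd6 and 6.53 times for mt-Atp6.

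**Figure D2:**
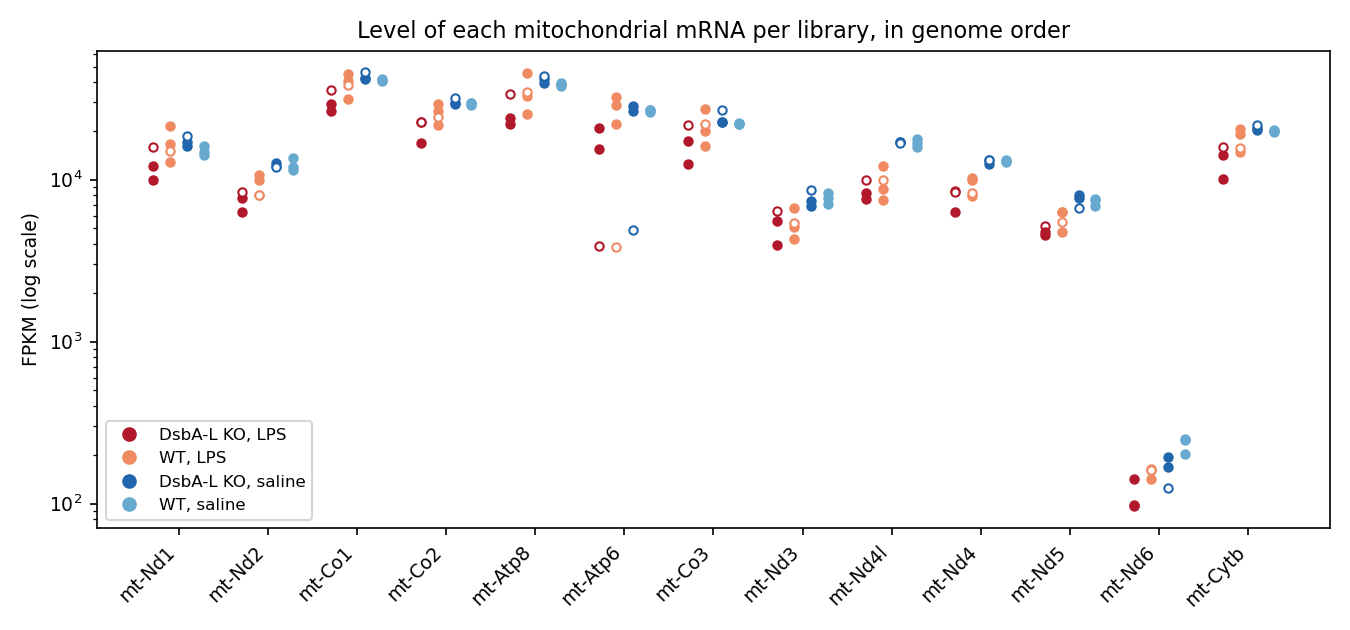
FPKM of each member (log scale) in each library, in genome order, coloured by group, with open points for the 3 libraries low in mt-Atp6. mt-Co1 is highest and mt-Nd6 lowest in every group, and the open points are far from the filled ones for mt-Atp6 alone.

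The mitochondrial share of all counts was lower in knockout LPS kidneys than in knockout saline kidneys, without overlap. The share was 15.4%, 16.6% and 12.6% in knockout LPS libraries, and 15.7%, 20.1%, 22.9% and 17.0% in wild-type LPS libraries. It was 21.9%, 22.6% and 22.01% in knockout saline libraries, and 21.4%, 22.1% and 21.6% in wild-type saline libraries. The 6 saline libraries lay close together, whereas the LPS libraries were spread widely: wild-type library AKI-12 was above all saline libraries and the other 3 wild-type LPS libraries were below them. The means were 14.9% ± 2.03 in knockout LPS kidneys (SD, n = 3), 18.9% ± 3.24 in wild-type LPS kidneys (n = 4), 22.2% ± 0.363 in knockout saline kidneys and 21.7% ± 0.357 in wild-type saline kidneys (n = 3 each). The difference between knockout and wild type under LPS was -4.08 percentage points, with overlapping ranges, and with saline it was 0.476 points. No comparison of this share passed the exact permutation test after adjustment.

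Without mt-Atp6 the shares were 13.96%, 16.3% and 11.6% in knockout LPS libraries, 14.2%, 18.1%, 20.7% and 16.7% in wild-type LPS libraries, 20.1%, 20.6% and 21.7% in knockout saline libraries and 19.6%, 20.2% and 19.8% in wild-type saline libraries. The same groups overlapped, but library AKI-12 was then below knockout saline library 3. In whole tissue, fewer cells of a type and less RNA per cell cannot be told apart. The summed level of 15 proximal tubule markers, all detected, was 13040 to 14100 CPM in knockout LPS libraries, 21560 to 27860 in wild-type LPS libraries, 21270 to 23230 in knockout saline libraries and 17710 to 22940 in wild-type saline libraries. Kap, an abundant androgen-responsive transcript of the proximal tubule singled out after its values were seen, carried much of this sum, with 8366 to 10090 CPM in knockout LPS libraries, 16750 to 22070 in wild-type LPS libraries, 7698 to 10520 in knockout saline libraries and 4112 to 8342 in wild-type saline libraries. The other 14 summed to 3418 to 4670 CPM in knockout LPS libraries, 3936 to 5795 in wild-type LPS libraries, 12260 to 13580 in knockout saline libraries and 13600 to 14600 in wild-type saline libraries, so without Kap the LPS groups overlapped and both lay below the saline groups. Of the 15 markers, 6 were lower and 2 higher in knockout than in wild-type LPS kidneys, against 6.29% and 8.74% of all tested genes. The median log2 fold change was 0.35. With 1 library left out, 2 to 7 were lower and 1 to 6 higher, and the median ran from -0.12 to 0.58. Over all genes 172 to 2105 were lower and 348 to 2434 higher in those fits. With LPS, 12 were lower and none higher in knockouts, against 12.9% and 14.7% of all tested genes. In wild types 13 were lower and 2 higher, against 28.6% and 28.4%. The 2 were Kap and Acsm2, a mitochondrial acyl-CoA synthetase.

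The summed level of 11 markers of the thick ascending limb and distal tubule, all detected, was 5135 to 8536 CPM in knockout LPS libraries, 2672 to 4479 in wild-type LPS libraries, 15260 to 17430 in knockout saline libraries and 14740 to 15660 in wild-type saline libraries. The 9 neutrophil markers, all detected, summed to 36.9 to 258 CPM in knockout LPS libraries, 35.7 to 144 in wild-type LPS libraries, 1.46 to 2.26 in knockout saline libraries and 1.25 to 1.59 in wild-type saline libraries. Of 9 collecting duct markers, 3 were higher and 1 lower in knockout than in wild-type LPS kidneys (median 0.47). Of the 11 thick ascending limb and distal tubule markers, 2 were higher and none lower (median 0.45). Over all tested genes 8.74% were higher and 6.29% lower. With 1 library left out, 0 to 4 and 1 to 5 of these markers were higher, beside 348 to 2434 of all genes. None of 5 podocyte markers was called (median 0.50). Higher markers made up a larger part of 3 other lists. They were 6 of 9 for macrophages and monocytes, with none lower (median 0.95); of 6 fibroblast and pericyte markers 4 were higher and none lower (median 1.31), and of 7 endothelial markers 4 were higher and 1 lower (median 0.60), against 8.74% of all tested genes higher. Macrophage and monocyte markers summed to 123 to 160 CPM in knockout LPS libraries, 53.4 to 74.3 in wild-type LPS libraries, 105 to 106 in knockout saline libraries and 88.99 to 106 in wild-type saline libraries. Fibroblast and pericyte markers summed to 559 to 669 CPM in knockout LPS libraries, 332 to 622 in wild-type LPS libraries, 102 to 153 in knockout saline libraries and 166 to 197 in wild-type saline libraries. Endothelial markers summed to 572 to 808 CPM in knockout LPS libraries, 326 to 472 in wild-type LPS libraries, 626 to 680 in knockout saline libraries and 612 to 676 in wild-type saline libraries. No macrophage and monocyte, fibroblast and pericyte or endothelial marker was at 0 in all libraries. The part of all these cell types in the mitochondrial results was not tested.

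**Figure D3:**
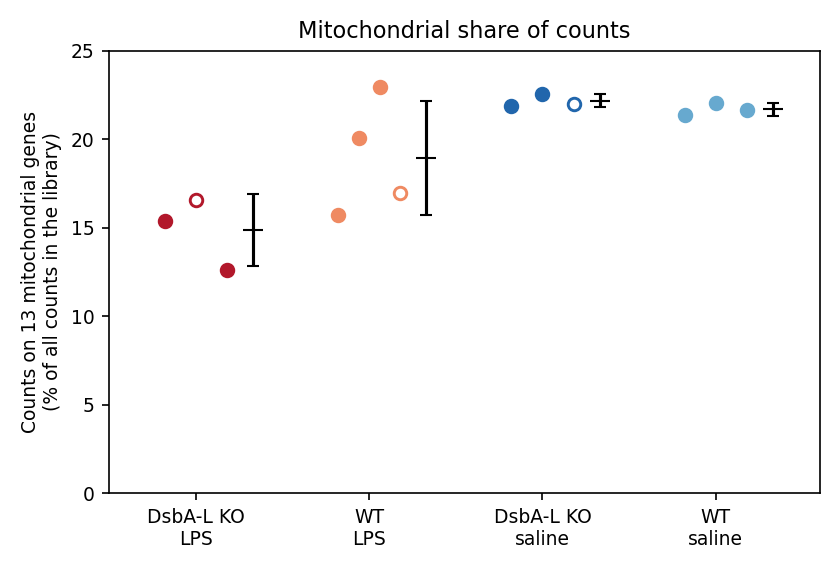
Percent of each library's counts that fell on the 13 mitochondrial genes, 1 point per library, with the group mean and SD as a bar to the right and open points for the 3 libraries low in mt-Atp6. Knockout LPS libraries sit between 12.6% and 16.6%, wild-type LPS libraries between 15.7% and 22.9%, and the saline libraries between 21.4% and 22.6%.

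Under LPS, all 13 members had lower estimates in knockout than in wild-type kidneys, but only mt-Nd6 passed the test. mt-Nd6, the complex I subunit encoded on the other strand, had 62.5, 49.2 and 42.5 normalised CPM (scaled with TMM factors, which align the bulk of genes between libraries) in knockout LPS libraries, and 74.3, 97.3, 108 and 89.4 in wild-type LPS libraries. All 3 knockout values were below all 4 wild-type values. The log2 fold change was -0.84 ± 0.20 (SE), with an adjusted p of 0.0140 in edgeR's quasi-likelihood test over 15703 genes. With adjusted p under 0.05 as the threshold used throughout, 1 of 13 members was called lower, against 6.29% of all tested genes, and 0 were called higher, against 8.74%. That test takes 1 spread per gene from all 13 libraries, saline libraries included. Fitted on the LPS libraries alone, mt-Nd6 had -0.82 ± 0.22 (edgeR adjusted p = 0.0782) and did not pass. In that fit 54 of 14709 genes were lower and 48 higher.

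The other 12 members had estimates between -1.14 and -0.36, and the median of all 13 was -0.66, beside -0.00 over all genes. mt-Cytb had 13730, 17930 and 9751 normalised CPM in knockout LPS libraries and 17160, 25100, 30570 and 19170 in wild-type LPS libraries (-0.74 ± 0.25, edgeR adjusted p = 0.0614). Its groups overlapped through knockout library AKI-156, which exceeded wild-type library AKI-317. Of the rest, 7 had edgeR adjusted p between 0.0650 and 0.0875, among them mt-Nd2 (-0.66 ± 0.23), mt-Co2 (-0.64 ± 0.23), mt-Co1 (-0.69 ± 0.25), mt-Nd5 (-0.59 ± 0.21) and mt-Nd1 (-0.73 ± 0.28). mt-Nd3 had the smallest estimate (-0.36 ± 0.25, edgeR adjusted p = 0.333). mt-Atp6 had the widest error (-1.14 ± 0.70), and without the 3 libraries low in it it passed (-1.08 ± 0.28, edgeR adjusted p = 0.0187).

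The count of members called lower turned on single libraries. It was 11 without knockout LPS library AKI-156 and 8 without wild-type LPS library AKI-317. It was 0 without knockout LPS library AKI-381, where mt-Nd6 had an edgeR adjusted p of 0.0805. It was 11 without the 3 libraries low in mt-Atp6, and 9 in DESeq2. Calls over all genes changed in the same fits. Of 15703 genes 988 were lower in the main fit, against 2105 of 16021 without library AKI-156. The number was 920 of 15616 without library AKI-317 and 172 of 16019 without library AKI-381. Without the 3 libraries it was 1850 of 15915, and in DESeq2 1638 of 15693. Scaled to library totals alone, which moved the median of all genes to 0.34 and gave 87.45% higher among called genes against 58.15%, the median of the members was -0.32, all 13 were still below 0 and none was called.

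In knockout kidneys, 7 members fell with LPS, and 5 of them were complex I messengers, which make up 7 of the 13 members. mt-Nd4l, a membrane subunit of complex I whose last 7 bases overlap mt-Nd4, had 1894, 2913 and 2071 normalised CPM in knockout LPS libraries, and 4991, 5131 and 4969 in knockout saline libraries. The groups lay far apart, with a log2 fold change of -1.13 ± 0.25 (edgeR adjusted p = 0.00430). Its partner on the same messenger, mt-Nd4, fell by 0.91 on the log2 scale (SE 0.23, edgeR adjusted p = 0.0109). mt-Nd2 (-0.87 ± 0.24), mt-Nd5 (-0.79 ± 0.23) and mt-Nd6 (-0.71 ± 0.21) fell with edgeR adjusted p of 0.0155, 0.0198 and 0.0205. Outside complex I, mt-Cytb (-0.80 ± 0.26, edgeR adjusted p = 0.0383) and mt-Co2 (-0.68 ± 0.24, edgeR adjusted p = 0.0485) fell.

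The groups were closer for mt-Nd6. It had 62.5, 49.2 and 42.5 normalised CPM in knockout LPS libraries and 86.4, 101 and 64.4 in knockout saline libraries 1, 2 and 3, so that LPS library AKI-320 was just below saline library 3. The 6 members that did not pass had estimates between -0.79 and -0.59: mt-Atp8 (-0.79 ± 0.29, edgeR adjusted p = 0.0559), mt-Nd3, mt-Co1, mt-Co3, mt-Nd1 and mt-Atp6. mt-Atp6 had -0.79 ± 0.73, and -0.84 ± 0.30 without the 3 libraries low in it. Thus 7 of 13 members were called lower, against 12.9% of all tested genes, and 0 higher, against 14.7%. The median of the 13 was -0.79, beside 0.03 over all genes.

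The count of 7 was 11 without knockout LPS library AKI-156, 10 without wild-type LPS library AKI-12 and 10 in DESeq2. It was 2 without knockout LPS library AKI-381 and 4 without knockout LPS library AKI-320. Without knockout saline library 2 it was 2, and without knockout saline library 1 it was 3. Over all genes, 2024 of 15703 were lower in the main fit, 1526 of 16021 without AKI-156 and 2225 of 15646 without AKI-12. The number was 2440 of 15693 in DESeq2, 1933 of 16019 without AKI-381 and 1918 of 16005 without AKI-320. It was 1410 of 16009 without knockout saline library 2 and 1415 of 16028 without knockout saline library 1. Relative to the mitochondrial total in place of all genes, none was called, and the median of the 13 was 0.04 where that of all genes was 0.79. Scaling to library totals moved the median of all genes to 0.19 and that of the members to -0.57, with 70.1% of called genes higher, against 53.3%.

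In wild-type kidneys, members had estimates of both signs with LPS and 1 passed. mt-Nd4l had 2238, 2991, 4660 and 3171 normalised CPM in wild-type LPS libraries, and 4643, 4867 and 5204 in wild-type saline libraries. Library AKI-12 lay within the saline range and the other 3 below it, and the log2 fold change was -0.59 ± 0.23 (edgeR adjusted p = 0.0425). In all, 1 of 13 members was called lower, against 28.6% of all tested genes, and 0 higher, against 28.4%. The median of the 13 was -0.04, beside 0.00 over all genes, and 7 were below 0. At the other end, mt-Nd1 had an estimate of 0.36 ± 0.27 (edgeR adjusted p = 0.269), mt-Co3 of 0.18 ± 0.28 and mt-Co1 of 0.13 ± 0.25. Most of these directions rested on library AKI-12: without it the median of the 13 was -0.27 with 12 below 0. The estimates of mt-Co3 and mt-Co1 were then -0.06 and -0.03, while that of mt-Nd1 was smaller but stayed above 0, at 0.11. The median was 0.07 without library AKI-13, 0.02 without library AKI-317 and -0.18 without library AKI-319. mt-Atp6 had -0.04 ± 0.68, and 0.32 ± 0.24 without the 3 libraries low in it.

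The call of mt-Nd4l held in 4 of 13 fits that left out 1 library, and in DESeq2 (adjusted p = 0.0254). Its edgeR adjusted p was 0.107 without library AKI-317, 0.0832 without library AKI-319, 0.0765 without library AKI-13 and 0.0557 to 0.115 without a saline library. With library totals, which moved the median of all genes to -0.20 and gave 40.3% higher among called genes against 49.8%, 5 members were lower (mt-Nd2, mt-Nd3, mt-Nd4, mt-Nd4l and mt-Nd6) and 12 were below 0.

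With saline, knockout and wild-type kidneys showed no called member. Estimates for 11 of the 13 were above 0, between 0.01 and 0.23, and the median was 0.06. Those below 0 were mt-Nd6 and mt-Atp6. mt-Atp6 had -0.39 ± 0.73, and 0.07 ± 0.27 without the 3 libraries low in it. No member was called higher, against 0.00637% of all tested genes, or lower, against 0.0127%, in edgeR, and none in DESeq2; 1 member, mt-Nd6, had an unadjusted p under 0.05. mt-Nd6 had 86.4, 101 and 64.4 normalised CPM in knockout saline libraries and 127, 123 and 103 in wild-type saline libraries, so all 3 knockout values were below all 3 wild-type values (-0.49 ± 0.20, edgeR adjusted p = 1.0). Library 3 of the knockouts, the lowest, was also 1 of the 3 libraries low in mt-Atp6, and without those 3 the estimate was -0.33 ± 0.22.

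The LPS response of the knockouts relative to that of the wild types, tested as an interaction, had all 13 estimates below 0, from -0.96 to -0.36, with a median of -0.70 beside 0.00 over all genes. None passed: 0 of 13 were lower, against 0.745% of all tested genes, and 0 higher, against 1.36%, in edgeR, with 0 in DESeq2 and 4 lower at an unadjusted p under 0.05. The estimate of mt-Nd1 was -0.96 ± 0.40 (edgeR adjusted p = 0.180) and that of mt-Cytb -0.84 ± 0.36 (edgeR adjusted p = 0.193). mt-Atp6 had -0.75 ± 1.0, and -1.15 ± 0.39 (edgeR adjusted p = 0.0796) without the 3 libraries low in it. Without knockout LPS library AKI-156, mt-Nd1, mt-Atp8 and mt-Cytb passed, with edgeR adjusted p of 0.0373, 0.0443 and 0.0490. In that fit 1115 of 16021 genes were lower, against 117 of 15703 in the main fit. With library totals, the median of all genes was 0.37 and that of the members -0.30, with 12 below 0 and 89.5% of called genes higher, against 64.55%. The comparisons of knockout and wild type share LPS and saline libraries with the comparisons of LPS and saline, so their values are not independent.

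**Figure D4:**
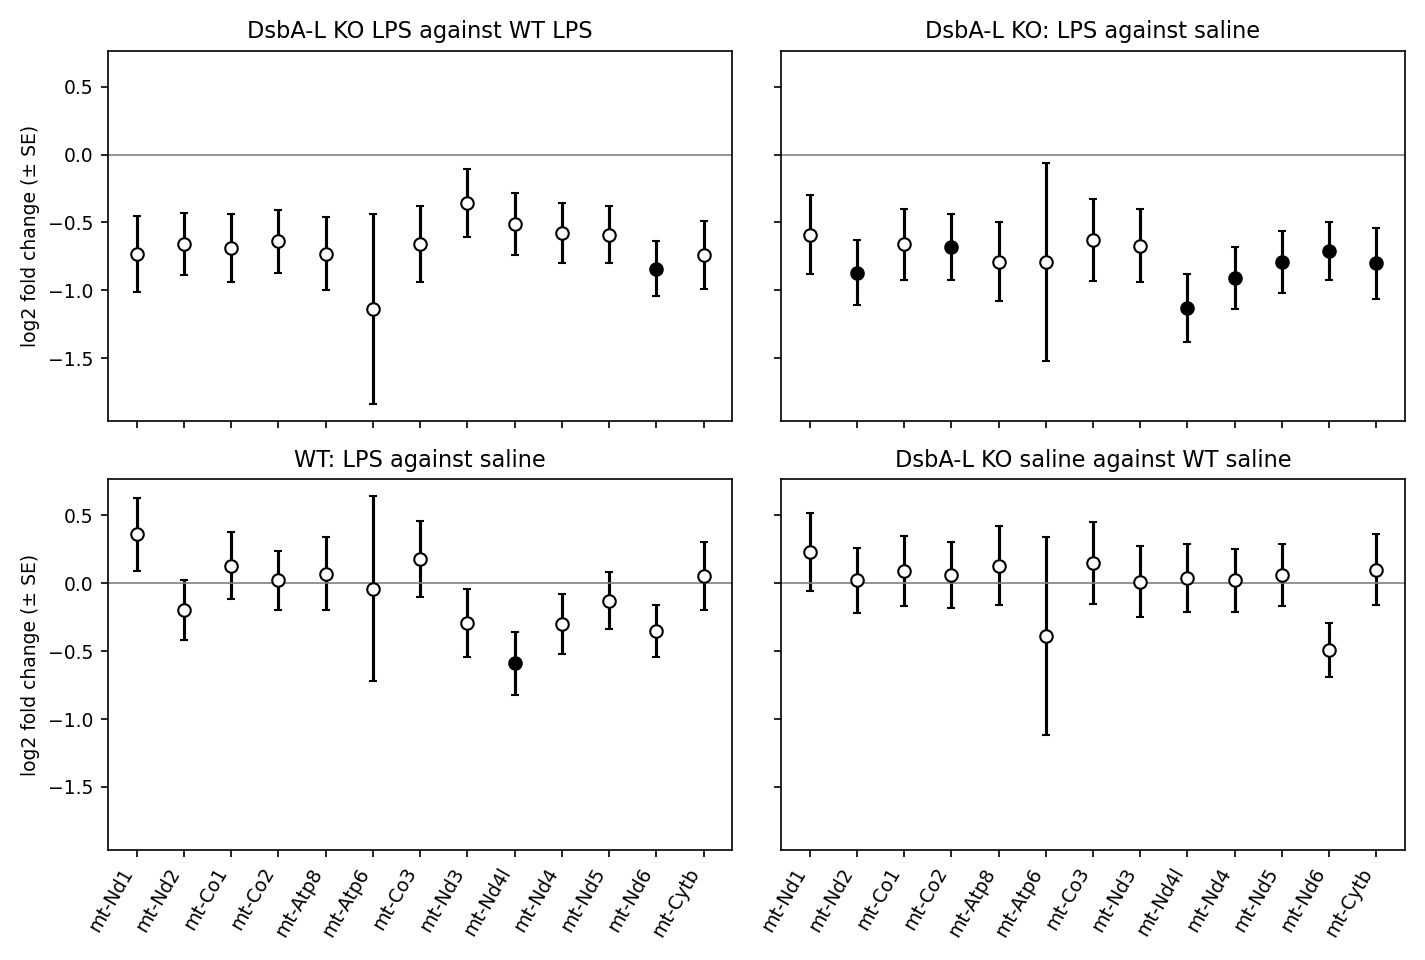
Log2 fold change of each member with its SE (edgeR) in 4 comparisons, in genome order; filled points had an adjusted p under 0.05. In knockout LPS kidneys all 13 lie below 0 against wild-type LPS and against knockout saline kidneys, with 1 and 7 filled, while mt-Nd4l is the filled point for LPS in wild type.

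Within the mitochondrial pool, the summed messengers of complex I were lower relative to those of complex IV in LPS kidneys of both genotypes. The log2 ratio of the 6 plus-strand complex I genes to the 3 complex IV genes, in summed counts per kilobase, was -0.59, -0.57 and -0.50 in knockout LPS libraries, and -0.61, -0.62, -0.59 and -0.69 in wild-type LPS libraries. It was -0.37, -0.32 and -0.46 in knockout saline libraries and -0.39, -0.32 and -0.36 in wild-type saline libraries. All 7 LPS libraries were below all 6 saline libraries. The sum does not describe each of its genes. The mean share of mt-Nd1 in mitochondrial counts was higher with LPS. It was 8.10% against 7.48% in knockouts, with overlapping ranges, and 8.29% against 6.66% in wild types. The mean difference within genotype was -0.22 on the log2 scale (exact permutation test, two-sided, p = 0.00143, the smallest the 700 arrangements can give; Benjamini-Hochberg adjusted p = 0.04 over 28 tests of 4 measures). With any 1 library left out the difference was between -0.24 and -0.20, with an adjusted p of 0.07 to 0.14 from the fewer arrangements left. The difference was -0.17 in knockouts and -0.27 in wild types, where 3 against 3 libraries cannot give a p below 0.1 and 3 against 4 none below 0.0286.

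The shares of mt-Nd4l, mt-Nd4 and mt-Nd2 in the pool each separated the treatments. mt-Nd4l held 1.46%, 1.78% and 1.96% of mitochondrial counts in knockout LPS libraries, and 1.41%, 1.30%, 1.57% and 1.75% in wild-type LPS libraries. With saline it held 2.31%, 2.26% and 2.28% in knockout libraries and 2.21%, 2.28% and 2.47% in wild-type libraries. The LPS and saline values did not overlap. Tested relative to the mitochondrial total, it was lower in wild-type LPS than in wild-type saline kidneys (-0.62 ± 0.17, edgeR adjusted p = 0.00707), and in knockouts the estimate was -0.40 ± 0.18 (edgeR adjusted p = 0.0806). mt-Nd4, which follows it on the same messenger, held 6.94% to 7.60% in knockout LPS libraries and 6.17% to 6.98% in wild-type LPS libraries, against 7.91% to 8.34% in knockout saline libraries and 8.17% to 8.47% in wild-type saline libraries, again without overlap. mt-Nd1 had higher shares with LPS in wild types, 7.78% to 8.96% in wild-type LPS libraries against 6.32% to 6.98% in wild-type saline libraries, and relative to the mitochondrial total its estimate was 0.32 ± 0.15 (edgeR adjusted p = 0.0922). In knockouts its shares overlapped, with 7.52% to 9.17% under LPS and 7.05% to 8.11% with saline. mt-Nd2 held 5.17% to 5.23% in knockout LPS libraries and 4.86% to 5.34% in wild-type LPS libraries. With saline mt-Nd2 held 5.66% to 5.80% in knockout libraries and 5.52% to 6.38% in wild-type libraries, without overlap between treatments.

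**Figure D5:**
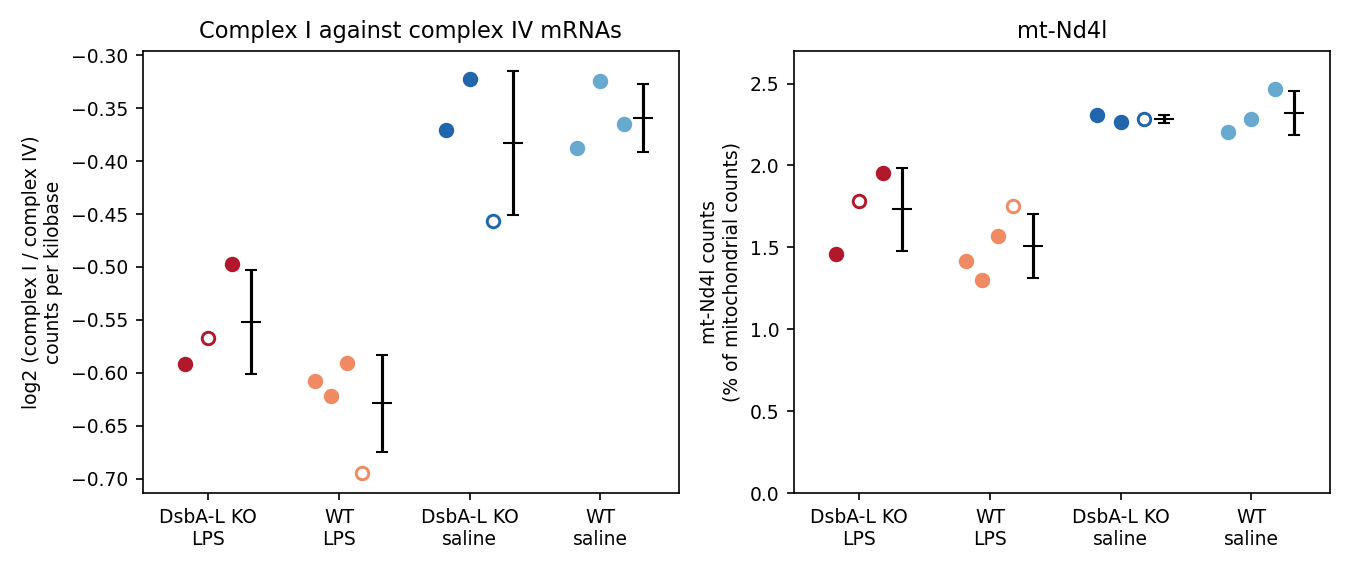
Log2 ratio of complex I to complex IV mitochondrial messengers in counts per kilobase (left) and mt-Nd4l as a percent of mitochondrial counts (right), 1 point per library, with the group mean and SD to the right and open points for the 3 libraries low in mt-Atp6. On both sides the 7 LPS libraries lie below the 6 saline libraries, with mt-Nd4l at 1.30% to 1.96% against 2.21% to 2.47%.

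The light-strand messenger mt-Nd6 relative to the 12 other members gave log2 ratios of -11.0, -11.7 and -11.3 in knockout LPS libraries, -11.1, -11.2, -11.4 and -11.0 in wild-type LPS libraries, -11.3, -11.1 and -11.7 in knockout saline libraries and -10.7, -10.8 and -11.0 in wild-type saline libraries. Knockouts were lower than wild types within treatment by a mean of -0.36, which did not pass after adjustment (exact permutation test, two-sided, p = 0.0414, adjusted p = 0.262). The difference was -0.16 under LPS and -0.56 with saline. The ranges overlapped under LPS and did not overlap with saline.

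Nuclear genes of oxidative phosphorylation gave a comparison set of 76, all tested. It included 4 genes of complex II, which holds no member, and Atpif1, an ATP synthase inhibitor listed with complex V. In knockout kidneys, 29 of the 76 were lower with LPS and none higher, with all 76 below 0 and a median of -0.57, where the members' median was -0.79 and 12.9% of all tested genes were called lower. The count of 29 was 16, 19 and 19 without knockout saline library 3, 2 or 1, and 18 without knockout LPS library AKI-381. Over all genes, 2024 of 15703 were lower in the main fit. The number was 1495 of 16031, 1410 of 16009 and 1415 of 16028 without those saline libraries, and 1933 of 16019 without AKI-381. Atp5a1, a catalytic-head subunit of ATP synthase, had a log2 fold change of -1.02 ± 0.16 (edgeR adjusted p = 3.08e-04), and Sdha, the flavoprotein of complex II, which has no mitochondrial-encoded subunit, -0.96 ± 0.22 (edgeR adjusted p = 0.00510). In wild-type kidneys, 15 were lower and 5 higher with LPS, both below the 28.6% and 28.4% of all tested genes, and the median was -0.12, where the members' was -0.04. The 15 lower were 8 and 9 without wild-type saline library 1 or 3, 9 without library AKI-13 and 23 without library AKI-319. Over all genes, 4496 of 15703 were lower in the main fit. The number was 3939 of 16028 and 3856 of 16010 without those saline libraries. It was 4213 of 15643 without AKI-13 and 4312 of 15633 without AKI-319. Between knockout and wild type under LPS, Cox4i1, a nuclear subunit of complex IV, was the 1 gene called lower (-0.58 ± 0.18, edgeR adjusted p = 0.0419) and none was higher, with a median of -0.35 where the members' was -0.66. Of all tested genes 6.29% were lower. At an unadjusted p under 0.05, 24 of the 76 were lower, and 14 in DESeq2. The edgeR count was 17 without knockout LPS library AKI-156, 9 without wild-type LPS library AKI-317, 6 without wild-type LPS library AKI-13 and 0 without any other library. Over all genes, 988 of 15703 were lower in the main fit and 1638 of 15693 in DESeq2. Without AKI-156, AKI-317 or AKI-13 the number was 2105 of 16021, 920 of 15616 or 1063 of 15643. With saline no gene of the 76 was called in edgeR or DESeq2, and none had an unadjusted p under 0.05.

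The log2 ratio of mitochondrial messengers to those of the 76 nuclear genes was taken in summed counts per kilobase. It averaged 4.80 ± 0.147 in knockout LPS kidneys (SD, n = 3) and 5.09 ± 0.271 in wild-type LPS kidneys (n = 4). With saline it averaged 5.02 ± 0.157 in knockout kidneys and 5.06 ± 0.0817 in wild-type kidneys (n = 3 each). No comparison of this ratio passed. The difference between knockout and wild type under LPS was -0.29 (exact permutation test, two-sided, p = 0.2, adjusted p = 0.373), and -0.17 without library AKI-12; that between LPS and saline within genotype was -0.09 (exact permutation test, two-sided, p = 0.406, adjusted p = 0.494).

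Nuclear genes that copy, transcribe and process mitochondrial DNA and RNA were also counted. Over all tested genes, 28.6% were lower and 28.4% higher with LPS in wild types, and 12.9% were lower and 14.7% higher in knockouts. Of 19 tested genes of mitochondrial DNA transcription and replication, 7 were lower and 1 higher with LPS in wild types, and 1 was lower and none higher in knockouts, or 0 lower without library AKI-156 or knockout saline library 1 or 2. Peo1, the helicase of mitochondrial DNA replication, had a log2 fold change of -1.51 ± 0.17 with LPS in wild types (edgeR adjusted p = 6.93e-06), and Mgme1, an exonuclease that trims newly copied strands, -1.68 ± 0.23 (edgeR adjusted p = 4.75e-05). Their interaction estimates were 1.16 ± 0.24 and 1.42 ± 0.34, with edgeR adjusted p of 0.0393 and 0.0481, but passed in 4 and 2 of 13 fits that left out 1 library, and in none that left out a saline library. The interaction estimate of Dna2 was 1.70 ± 0.33 (edgeR adjusted p = 0.0315), and it passed in 4 of 13 such fits, again in none without a saline library. Under LPS, Dna2 was higher in knockouts than in wild types (1.21 ± 0.22, edgeR adjusted p = 0.00585), and in 13 of 13 such fits. Knockout saline levels were below wild-type saline levels, with 28.7, 23.9 and 25.5 against 44.1, 37.9 and 40.1 normalised CPM for Peo1 and 11.5, 7.79 and 6.86 against 19.4, 13.6 and 14.6 for Mgme1. Of 30 tested genes of mitochondrial RNA processing and decay, 7 were lower and 6 higher with LPS in wild types, and 3 lower and 1 higher in knockouts, each below the share over all genes. The 6 higher were 3 without wild-type saline library 1 or 3, and the 1 higher in knockouts was 3 without library AKI-12 and 2 without library AKI-381. Lrpprc, which stabilises the heavy-strand messengers, was lower in both, with -1.26 ± 0.19 in wild types (edgeR adjusted p = 7.95e-05) and -0.74 ± 0.20 in knockouts (edgeR adjusted p = 0.0140, and 0.0626 without knockout saline library 1). Grsf1, an RNA-binding protein of the granules where mitochondrial precursors are processed, was lower in knockouts (-0.80 ± 0.17, edgeR adjusted p = 0.00327), and Rexo2, a nuclease that degrades short RNA remnants, was higher (0.91 ± 0.17, edgeR adjusted p = 0.00127).

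Of 12 regulators of mitochondrial biogenesis, 6 were lower and 2 higher with LPS in wild types, and 6 lower and none higher in knockouts, so that in both genotypes the lower share was above and the higher share below that over all genes. Sirt3 had the smallest p of this list with LPS in both genotypes. Its estimates were -2.0 ± 0.17 in wild types (edgeR adjusted p = 1.13e-06) and -1.71 ± 0.19 in knockouts (edgeR adjusted p = 2.57e-05). Ppargc1a, the coactivator PGC-1α, fell by 2.87 on the log2 scale in wild types (SE 0.28, edgeR adjusted p = 2.98e-06) and had -1.43 ± 0.30 in knockouts (edgeR adjusted p = 0.00296). Between genotypes under LPS it was higher in knockouts (1.38 ± 0.28, edgeR adjusted p = 0.00793, and 0.0513 without library AKI-381), as was its partner receptor Esrrg (1.59 ± 0.28, edgeR adjusted p = 0.00550), while every mitochondrial messenger had an estimate below 0 in that comparison. Of 20 mitochondrial aminoacyl-transfer-RNA synthesis genes, 7 were lower with LPS in wild types and 2 in knockouts, and none was higher in either; the shares lower were near those over all genes, and the 2 in knockouts were 1 without library AKI-156 or any 1 knockout saline library and 3 without library AKI-381. Nars2, which charges the asparagine transfer RNA, had -1.71 ± 0.22 in wild types (edgeR adjusted p = 2.76e-05).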

How the data were processed

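Kidney RNA of 13 mice was sequenced, 1 library per label number, and grouped by the genotype and treatment of the labels. Per the file headers, the authors deposited raw read counts and FPKM for 34745 genes in each library. The deposited FPKM equalled count over gene length and library total within 0.0833%, so they served for levels only and counts were tested. Aligners listed in the submitters' processing notes are HISAT2, TopHat and TopHat2 2.0.9; edgeR and the human build hg38 are listed too, without a role. The gene identifiers are those of mouse, and all 13 member positions matched the mouse GRCm38 annotation, from which sequences were read. The labels and notes do not state the counter, the strand setting, RNA selection, batches, or how reads matching both genomes were assigned.

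Counts were tested with edgeR 4.0.16 (R 4.3.3, limma 3.58.1): quasi-likelihood test, TMM factors between 0.7724 and 1.193, genes kept at a minimum count of 10, 15703 genes, 4 group means over all 13 libraries, Benjamini-Hochberg adjustment over all tested genes and a threshold of 0.05. DESeq2 1.42.0 was the alternative tool. Other alternatives were other scalings, no filter, only the groups compared, a replicate block, each library left out, and, chosen after seeing the data, nuclear copies added to their genes, fits without mt-Atp6 or its 3 low libraries, proximal tubule markers without Kap, and gene lists with each library left out. Ratios per library and the mitochondrial share were compared with exact permutation tests, two-sided, stratified where stated (Python 3.11.15, numpy 2.4.6), adjusted over 28 tests. The share of counts is given without its p-values, none of which passed after adjustment. The planned ribosomal and transfer RNA shares could not be computed. The scripts were tested on simulated data.

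All members are described. From each list, up to 4 called genes with the smallest p in a comparison could be named, and only some of these are. Kap and Acsm2 were named after their values were seen. The members and lists were chosen with earlier results of these data known. Depth, 14372212 to 17668334 counts, limits only counting error: the lowest member count was 746, and the spread between mice and reads shared with nuclear copies limit the values more. p-values measure the spread between these libraries.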

Additional observations from a re-analysis of the deposited data

How the results depend on the processing

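Over the alternatives run, 2122 values were compared: 1860 kept their direction and side of the threshold, 81 lost the threshold, 57 gained it, 120 moved and 4 changed sign from a called value. No member was called higher in any comparison under any alternative run. Relative to mitochondrial totals, with or without mt-Atp6, mt-Co2 (0.04 and 0.05) and mt-Nd6 (0.05 and 0.06) were above 0 for LPS against saline in knockouts, by the construction of that scaling. The number of members called lower between knockout and wild type under LPS (1) was 0 with library totals, both mitochondrial totals and only the groups compared, 9 with DESeq2, 11 without the 3 libraries low in mt-Atp6, and 0 to 11 with 1 library left out. Over all genes the number lower moved too, from 54 of 14709 with only the groups compared to 2105 of 16021 without library AKI-156. For LPS in wild types (1) it was 5 with library totals, 0 with no filter, the replicate block, only the groups compared or without the 3 libraries, and 0 to 1 with 1 library left out. For LPS in knockouts (7) it was 0 with both mitochondrial totals, 1 with the replicate block and 2 to 11 with 1 library left out; for the interaction (0) it was 0 to 3. The numbers of the saline libraries do not pair them: same-numbered libraries deviated with correlations of 0.0179, -0.0501 and -0.0299. Where no construction is named, the cause was not tested.

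Per kilobase, the mitochondrial share differed by -11.77 points between LPS and saline (exact permutation test, adjusted p = 0.04). Between knockout and wild type with saline it differed by -0.284. The mitochondrial to nuclear ratio differed by 0.054 between LPS and saline on counts, and by 0.010 between knockout and wild type with saline without mt-Atp6. By medians over genes, the complex I to IV ratio of knockout and wild type differed by -0.0046. With 1 library left out, the light-strand ratio ranged over -0.12 to 0.23 (LPS in knockouts) and -0.32 to 0.017 (knockout against wild type, LPS), the complex I to IV ratio over -0.24 to -0.20 (LPS against saline) and -0.054 to 0.013 (knockout against wild type, saline), and the mitochondrial to nuclear ratio over -0.080 to 0.12 (LPS in wild types), -0.089 to 0.056 (knockout against wild type, saline), -0.38 to -0.17 (knockout against wild type, LPS) and -0.15 to -0.050 (LPS against saline).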

Other observations

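Of the copies on chromosome 2, Gm13339, the copy of mt-Nd2, had 0.125%, 0.227% and 0.107% as many counts as mt-Nd2 in knockout LPS libraries, and 0.209%, 0.177%, 0.136% and 0.146% in wild-type LPS libraries. It had 0.0671%, 0.0760% and 0.0959% in knockout saline libraries and 0.0843%, 0.0773% and 0.0714% in wild-type saline libraries. All 7 LPS values were above all 6 saline values, on 103 to 302 counts per library. Gm29216, the copy of the end of mt-Co1, had 3.17%, 2.60% and 1.94% as many counts as mt-Co1 in knockout LPS libraries and 3.44%, 3.97%, 1.98% and 1.90% in wild-type LPS libraries, against 1.81%, 1.84% and 2.25% in knockout saline libraries and 2.10%, 2.02% and 1.69% in wild-type saline libraries. These ranges overlapped.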
